A study of Rattus norvegicus with 6 samples.

Results

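The genes described here are the motile cilia genes of the rat lung, chosen by name. They are the rows of the count table whose symbol begins with Dnah, Dnai, Dnal, Dnaaf, Cfap, Rsph or Tekt followed by a digit, plus Foxj1. Of 40995 genes in the table, 73 matched, and 71 had at least 10 counts in 2 or more libraries. All 71 are annotated as protein coding. The values came from lungs of 3 wild-type (WT) Sprague-Dawley rats and 3 rats of the crTMPRSS2 line (KO), in which CRISPR/Cas9 editing was aimed at Tmprss2 on the same background. Neither group was treated, and all 6 libraries carry 1 batch label. Messenger RNA was selected from total lung RNA with poly-T beads and sequenced, so each library is a mixture of all lung cells. Tmprss2 encodes a serine protease of the epithelial cell surface that also primes viral surface proteins for entry. The design asks how the lung transcriptome of the KO differs from that of the WT. The sources used here do not give sex, age, litter or the number of founders behind the line.

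Motile cilia beat on the multiciliated cells of the airways and move mucus towards the throat. Each cilium is built around an axoneme, a ring of doublet microtubules with a central pair. Outer and inner dynein arms slide the doublets against each other, and radial spokes carry signals from the central pair to the arms. The arms are assembled in the cytoplasm with the help of dedicated factors, and Foxj1 and the RFX transcription factors switch on most of the genes involved. In a whole lung these genes come from a small fraction of the cells, and in bulk RNA fewer cells of a type cannot be told apart from less RNA per cell.

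Total counts were 33839171, 33033732 and 36895162 in WT replicates 1 to 3 and 29933359, 30514778 and 30155176 in KO replicates 1 to 3. Levels are given as CPM, read counts relative to library size, with sizes corrected for composition by TMM, and across genes as the deposited FPKM, which also divides by gene length. Tmprss2 read 50.5, 61.98 and 65.7 CPM in WT replicates 1 to 3 and 46.1, 56.4 and 47.03 CPM in KO replicates 1 to 3. Its log2 fold change was -0.25 (SE 0.14) with all 6 libraries (edgeR adjusted p = 0.508, groups overlapping) and -0.36 (SE 0.09) without WT replicate 1 (adjusted p = 0.0589), short of the 0.05 threshold both times. A gene total does not show an edited base, so this does not check the genotype labels. WT replicate 1 was unlike the others: its first principal component score was -108.6, against 9.09 to 30.6 for the other 5. It alone held high levels of squamous epithelium markers (a summed 3133 CPM, against 1.96 to 3.08 elsewhere), striated muscle markers (10167 against 29.7 to 134) and basal cell markers (420 against 7.38 to 20.5). Counts and medians over groups of genes are therefore given with all 6 libraries and then without WT replicate 1. The fold change and adjusted p of a single gene are those without WT replicate 1 unless the sentence says otherwise.

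Per gene length, the 71 genes spanned a mean of 0.0197 FPKM for Dnah8 to 34.1 FPKM for Cfap298, with a median of 3.86 FPKM. Of them, 61 reached a mean of 1 FPKM and 11 reached 10 FPKM. The highest were Cfap298 (34.1 FPKM), needed for dynein arm assembly, Cfap20 (30.8 FPKM), which sits where the tubules of a doublet join, and Foxj1 (23.2 FPKM). Cfap36, Dnal4, Cfap126, Rsph1, Cfap100, Cfap65, Tekt2 and Cfap45 followed at 20.1, 17.9, 17.4, 13.4, 12.1, 10.9, 10.8 and 10.4 FPKM. The dynein heavy chains, very long genes, lay lower, from Dnah8 and Dnah14 (0.204 FPKM) up to Dnah12 (3.79 FPKM) and Dnah1 (3.06 FPKM). By the count rule itself, the weakest genes kept were Cfap157, Dnah8 and Dnaaf6, whose second-highest counts were 12, 14 and 95. The 2 left out were Cfap97d1, with 6, and Rsph6a, a spoke gene best known from sperm, with 2.

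**Figure D1:**
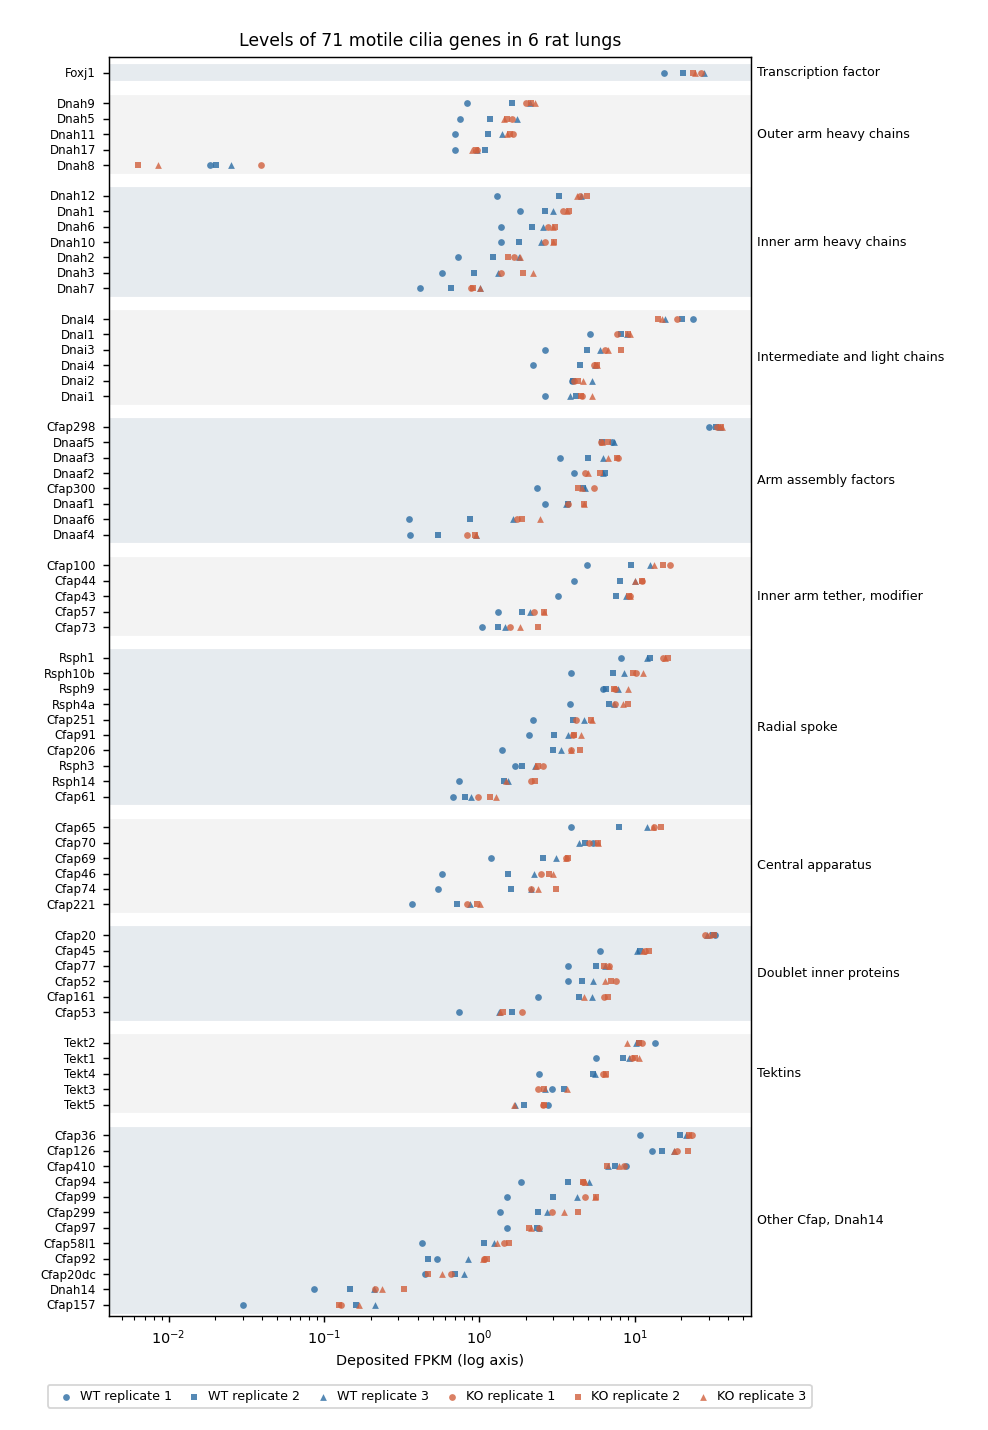
Deposited FPKM on a log axis for each of the 71 kept genes, with 1 point per library, ordered by mean level within each role of the axoneme. WT replicate 1 lies to the left of the other libraries for most genes, and the levels run from 0.0197 FPKM for Dnah8 to 34.1 FPKM for Cfap298.

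The start sites of these genes were searched for the motif that RFX factors bind, because the genes moved together across libraries (below) and RFX factors are their known regulators. RefSeq promoter windows of 300 bases, 250 before to 50 after a start on the build GRCr8, were given for 59 of the 71 genes. The RFX half-site GTTGCC, read on either strand (GGCAAC on the other), was present for 23 of the 59 genes, 39.0%, and for 3594 of all 27457 genes with a window, 13.1%. The inverted pair, GTTNCC and GGNAAC with 2 bases between them, was present for 4 of 59, 6.78%, and for 134 of all genes, 0.488%. The forkhead core TGTTTAC, the kind of site that Foxj1 binds, either strand, was present for 5 of 59, 8.47%, and for 4.13% of all genes. The pair motif can overlap the half-site, since GTTGCC is 1 of the forms it allows. Some genes have more than 1 window, and the members more often than others: per window, the shares were 29.1% of 103 against 12.2% of all 33469 for the half-site, 3.88% against 0.472% for the pair and 5.83% against 3.78% for the forkhead core. A match describes the letters of the window and is not a measured site.

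The 4 genes with an inverted pair are shown first, because that motif is the rarest of the 3 among all promoters, each 5′ to 3′ on the gene's strand with the pair in capitals. Dnaaf2 at chr6:93406378-93406431 (minus strand), Cfap298 at chr11:43677580-43677632 (minus strand), Cfap20dc at chr15:18661364-18661417 (plus strand) and Dnaaf6 at chrX:108512933-108512986 (plus strand) hold it at positions -88, -231, -178 and -49 relative to a start.
Dnaaf2: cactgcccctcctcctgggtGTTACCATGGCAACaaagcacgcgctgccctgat
Cfap298: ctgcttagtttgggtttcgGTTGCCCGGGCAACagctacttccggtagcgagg
Cfap20dc: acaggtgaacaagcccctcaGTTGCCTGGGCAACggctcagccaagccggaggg
Dnaaf6: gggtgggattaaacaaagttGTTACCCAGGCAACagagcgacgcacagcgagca

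Half-sites of several genes named below, among them Cfap74, Dnah10, Cfap36, Cfap44 and Tekt2, are not printed. Those that follow have GTTGCC or its reverse complement GGCAAC in capitals. They belong to Cfap99, which passed the test without WT replicate 1, to Cfap46, Cfap92, Dnah14, Tekt1 and the abundant Cfap20, whose groups overlapped. They lie at chr14:80685191-80685236 (minus strand), chr1:203912413-203912458 (minus strand), chr4:121737803-121737848 (minus strand), chr13:95857197-95857242 (plus strand), chr10:57479135-57479180 (minus strand) and chr19:9614807-9614852 (plus strand), at positions -48, -49, -69, -86, -39 and -151 relative to a start.
Cfap99: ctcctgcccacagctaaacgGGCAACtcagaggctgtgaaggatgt
Cfap46: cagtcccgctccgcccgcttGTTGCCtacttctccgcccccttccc
Cfap92: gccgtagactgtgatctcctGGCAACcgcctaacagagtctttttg
Dnah14: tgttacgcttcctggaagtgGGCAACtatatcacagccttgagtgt
Tekt1: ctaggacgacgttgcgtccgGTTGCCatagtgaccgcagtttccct
Cfap20: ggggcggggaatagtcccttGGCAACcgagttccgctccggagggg
The 23 genes with a half-site had a median log2 fold change, KO against WT, of 0.55 with all 6 libraries and 0.30 without WT replicate 1, and the 36 without one had 0.44 and 0.22. The 4 genes with the pair had medians of 0.02 and -0.11. These splits were not tested.

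The motile cilia genes varied together across the 6 lungs, and WT replicate 1 was the low one. Summed over the 71 genes, the level was 854.6, 1306 and 1554 CPM in WT replicates 1 to 3 and 1631, 1726 and 1679 CPM in KO replicates 1 to 3. As a share of the raw counts the same sums were 0.0746%, 0.131% and 0.157% in WT and 0.168%, 0.179% and 0.175% in KO. The 3 KO libraries lay close to each other and above each WT library, while WT replicate 1 lay far below the other WT libraries. The median coefficient of variation per gene was 8.02% over the KO and 32.5% over the WT, or 12.2% over WT replicates 2 and 3 alone. WT replicate 1 was the lowest of the 6 libraries for 61 of the 70 genes tested, 87.1%, where 37.3% of all 18464 tested genes were lowest there. The 9 exceptions were Cfap20, Cfap410, Cfap70, Cfap92, Dnaaf5, Dnal4, Tekt2, Tekt3 and Tekt5. The highest value fell in KO replicate 2 for 24 genes, KO replicate 3 for 23, KO replicate 1 for 9, WT replicate 3 for 8, WT replicate 1 for 4 and WT replicate 2 for 2.

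**Figure D2:**
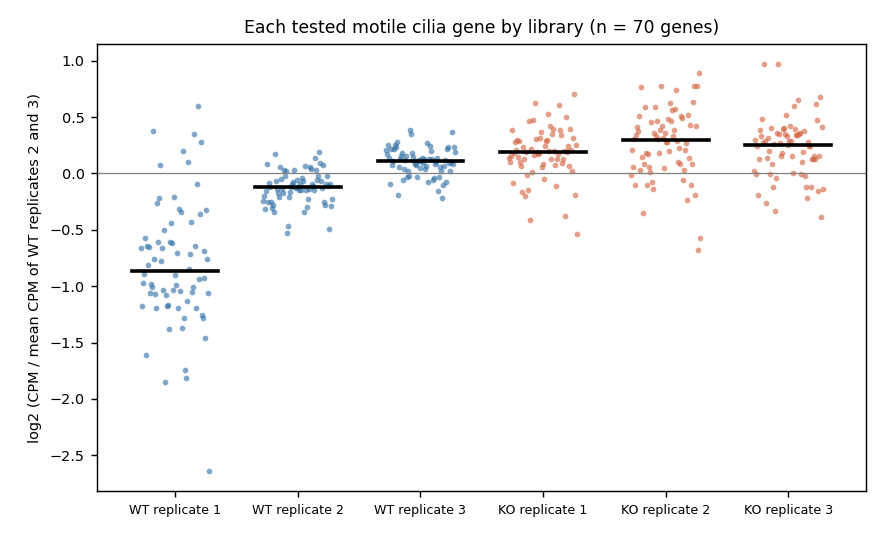
Each of the 70 tested genes in each library, as log2 of its CPM over the mean CPM of WT replicates 2 and 3; black bars are medians over genes. The medians are -0.87, -0.12 and 0.11 for WT replicates 1 to 3 and 0.19, 0.30 and 0.26 for KO replicates 1 to 3.

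WT replicates 2 and 3 also differed from each other. WT replicate 2 was below WT replicate 3 for 56 of 70 genes, with a median ratio of 1.17 of WT replicate 3 to WT replicate 2. The KO mean exceeded WT replicate 3 by a median ratio of 1.13, in 54 of 70 genes, and WT replicate 2 by 1.30, in 60 of 70. The median step from WT replicate 3 to the KO was thus no larger than the step between those 2 WT libraries. Over all 71 genes the summed KO mean was 1679 ± 47.7 CPM (SD, n = 3) and the WT mean 1238 ± 354.7 CPM (SD, n = 3), a ratio of 1.36, or 1.17 against WT replicates 2 and 3 alone.

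With all 6 libraries, no motile cilia gene passed the test of edgeR, although most lay higher in the KO. Of the 70 genes tested, 62 had a log2 fold change above 0 and 8 below, with a median of 0.49, where the median of all 18464 tested genes was -0.00. By the quasi-likelihood test of edgeR, adjusted by Benjamini-Hochberg over all tested genes, 0 of the 70 were called at an adjusted p under 0.05 in either direction, and the smallest adjusted p was 0.279, for Cfap52. Of all tested genes, 0.0162% were called higher and 0.0379% lower. At an unadjusted p under 0.05, 13 were higher and 0 lower, where 5.04% and 6.29% of all genes were. In the same libraries DESeq2 called 1 gene, Cfap52, higher, where it called 1.06% of all genes higher. With limma-voom and sample quality weights, which give a library unlike its group less weight, 19 were called, all higher, where 4.21% of all genes were; that setting was chosen after seeing the data. In 36 of the 70 genes every KO library lay above every WT library, and in 0 below, where 11.4% of all genes lay above and also 11.4% below. Dnah8 had too few counts to enter this fit.

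Without WT replicate 1 the differences were smaller and 2 genes, Dnah1 and Cfap99, rose in the KO. All 71 genes were tested, 59 above 0 and 12 below, with a median of 0.24 against 0.00 for all 18994 tested genes. They were the 2 genes called higher, and 0 were called lower, where 1.65% of all genes were called higher and 2.34% lower. At an unadjusted p under 0.05, 23 were higher and 2 lower, Dnaaf2 and Cfap20dc, where 8.52% and 9.28% of all genes were. Groups did not overlap in 37 genes with the KO higher and in the same 2 with the KO lower, where 17.1% and 17.5% of all genes lay apart in those directions. For 63 of the 70 genes tested in both fits the signed log2 fold change was higher with WT replicate 1 than without it. For some of them, such as Cfap20dc (-0.20 against -0.41), this means a change smaller in size. Of the 71 95% intervals without it, 63 excluded a 2-fold change in either direction. Both calls rested on every KO library: they were lost when any KO replicate was also left out. The edgeR adjusted p was then 0.0537 to 0.126 for Dnah1 and 0.0605 to 0.173 for Cfap99. Leaving out WT replicate 2 or WT replicate 3 instead left 1 WT library, so only log2 fold changes are given. In that order they were 0.29 and 0.44 for Dnah1 and 0.32 and 0.83 for Cfap99. The number of calls also moved with the method. DESeq2 called 8, Dnah1, Cfap99, Cfap46, Cfap52, Cfap100, Dnah3, Dnah10 and Rsph10b, where it called 2.91% of all genes higher. Without the filter on low counts edgeR called 14 (2.77% of all genes), with upper quartile scaling 4 (1.85%), and limma on log2(FPKM + 1) called 0 (0.353%); all these calls were higher in the KO. Below, called means by edgeR unless another tool is named. The shares of all genes given above for each fit and tool also apply to the counts by role below.

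**Figure D3:**
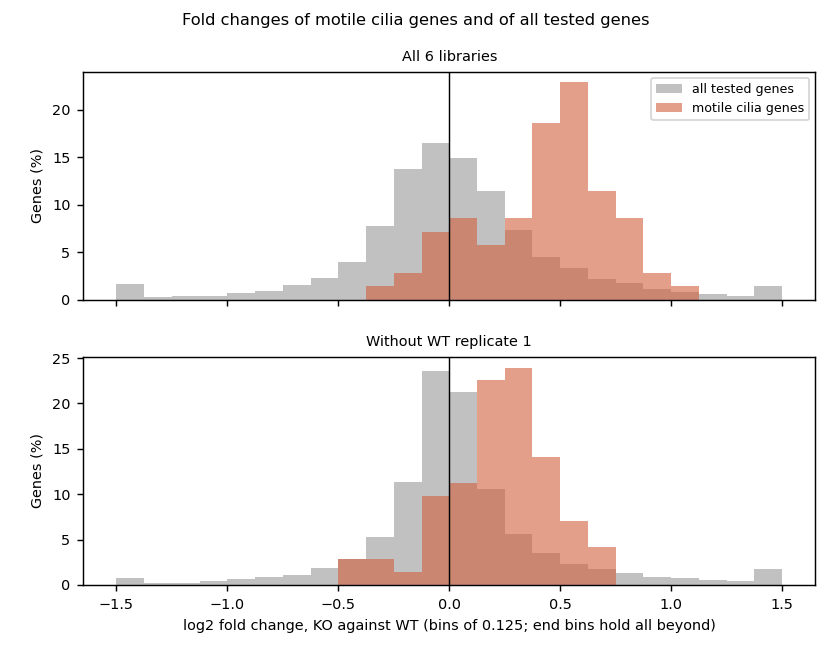
Log2 fold changes of the motile cilia genes (orange) and of all tested genes (grey) as a percentage of genes per bin, with all 6 libraries above and without WT replicate 1 below. Most motile cilia genes lie to the right of 0, around a median of 0.49 in the upper panel and 0.24 in the lower, while all tested genes centre on 0. To the left of 0 lie 8 of the 70 motile cilia genes in the upper panel and 12 of the 71 in the lower.

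**Figure D4:**
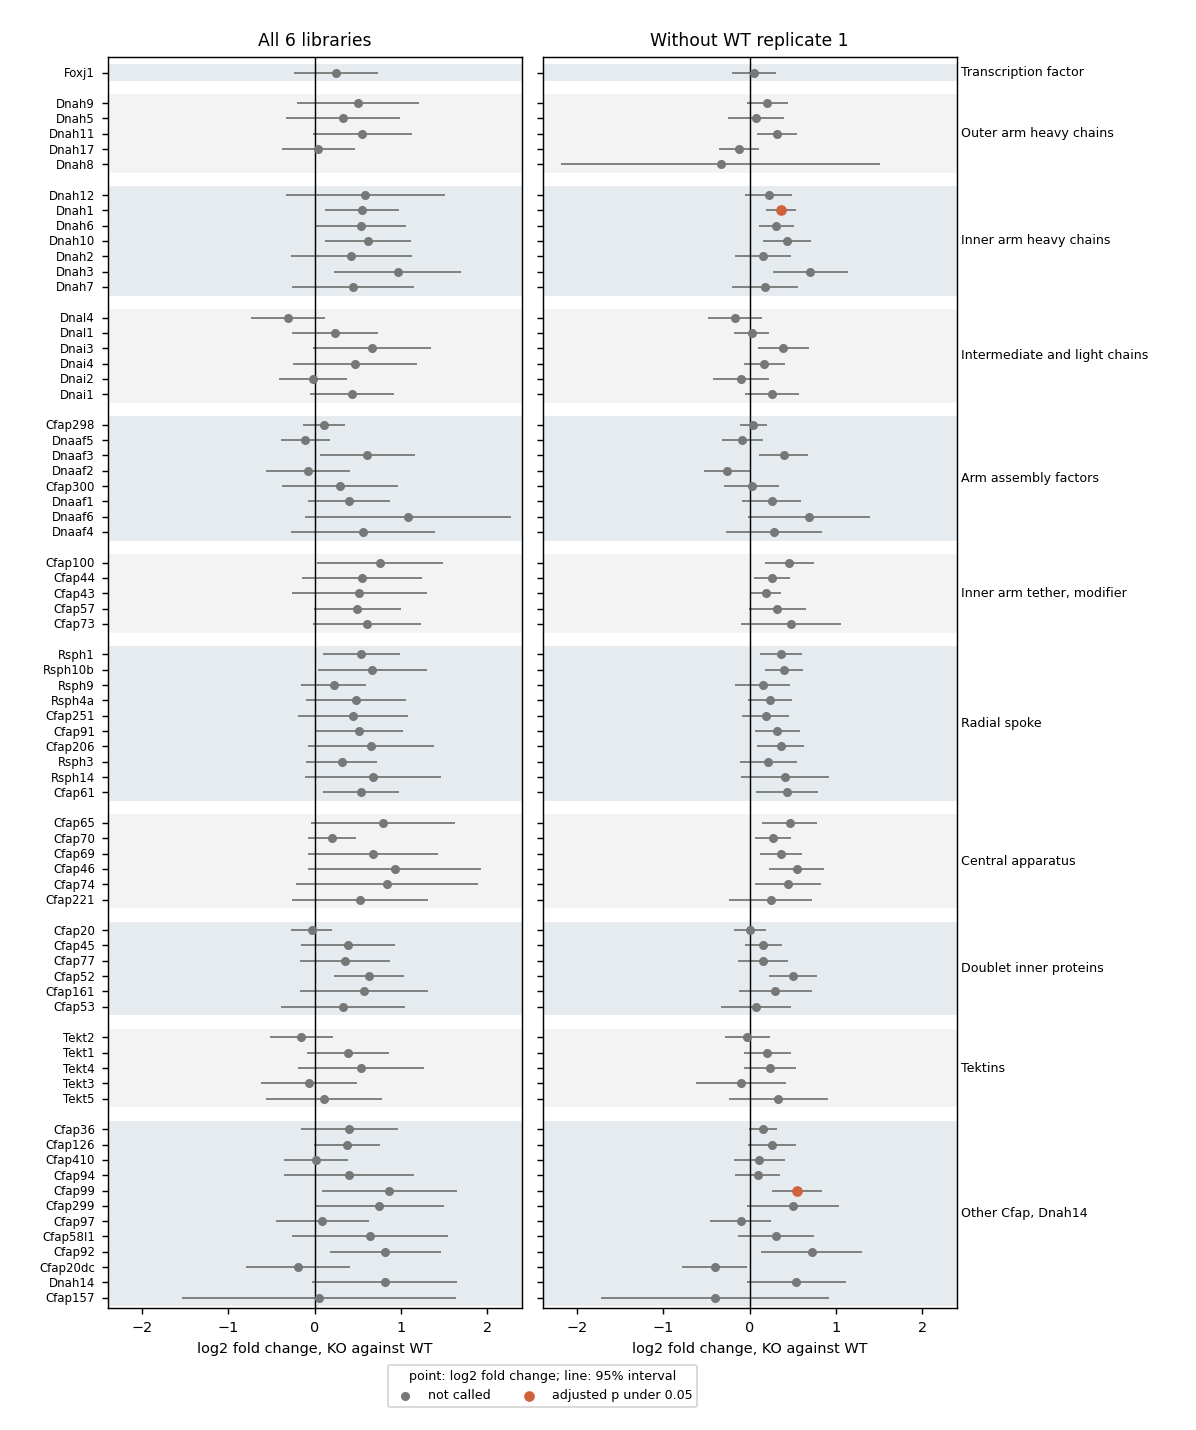
Log2 fold change of each gene, KO against WT, with its 95% interval from edgeR, by role; the left panel uses all 6 libraries (70 genes) and the right leaves out WT replicate 1 (71 genes). Orange points passed an adjusted p of 0.05: none on the left, and Dnah1 and Cfap99 on the right.

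Foxj1, the forkhead factor that directs motile cilium formation, passed the test in neither fit, and its groups overlapped. The gene lies on mRatBN7.2 at chromosome 10, 101566299 to 101570249, minus strand. It read 35.4, 47.3 and 64.99 CPM in WT replicates 1 to 3 and 61.9, 55.7 and 57.05 CPM in KO replicates 1 to 3, and WT replicate 3 was the highest of all. The log2 fold change was 0.24 (SE 0.21) with all 6 libraries (adjusted p = 0.637) and 0.05 (SE 0.12) without WT replicate 1 (adjusted p = 0.872, 95% interval -0.20 to 0.31). The other 70 kept genes together had 23.1, 26.6 and 22.9 times the Foxj1 CPM in WT replicates 1 to 3 and 25.3, 30.0 and 28.4 times in KO replicates 1 to 3. WT replicate 1, lowest in both, was thus inside the range of the other WT libraries in this ratio.

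The inner arm heavy chains, which shape the ciliary bend, all lay above 0 in both fits and held 1 of the 2 called genes. Their 7 genes had median log2 fold changes of 0.55 with all 6 libraries and 0.31 without WT replicate 1. Dnah1, a single-headed inner arm motor at chromosome 16, 6455514 to 6517103, minus strand, rose. It read 24.3, 35.8 and 40.00 CPM in WT replicates 1 to 3 and 46.1, 50.5 and 49.5 CPM in KO replicates 1 to 3, so every KO library lay above every WT library. Without WT replicate 1 it averaged 37.9 ± 2.99 CPM (SD, n = 2) in WT replicates 2 and 3 and 48.7 ± 2.34 CPM (SD, n = 3) in the KO, a log2 fold change of 0.36 (SE 0.08) with an adjusted p of 0.0306; with all 6 it was 0.55 and the adjusted p 0.359. Dnah3, another single-headed motor, had the largest fold of the group. It read 8.57, 13.9 and 19.9 CPM in WT replicates 1 to 3 and 20.7, 28.8 and 33.1 CPM in KO replicates 1 to 3, and without WT replicate 1 its log2 fold change was 0.70 (SE 0.20), short of the threshold at an adjusted p of 0.0818 (0.96 with all 6, adjusted p = 0.354), while DESeq2 called it (adjusted p = 0.00404). KO replicate 1 of Dnah3 lay close to WT replicate 3, and the other KO libraries lay well above. Dnah10, part of the double-headed inner arm, read 20.1, 26.4 and 36.8 CPM in WT replicates 1 to 3 and 38.8, 45.02 and 44.2 CPM in KO replicates 1 to 3, without overlap, at 0.43 (SE 0.13) and an adjusted p of 0.0954 (0.62 with all 6, adjusted p = 0.374; adjusted p = 0.0213 in DESeq2). Dnah12, the inner arm chain of highest FPKM, overlapped between groups, with 17.8, 45.4 and 62.9 CPM in WT replicates 1 to 3 and 61.3, 68.8 and 59.2 CPM in KO replicates 1 to 3 and an adjusted p of 0.396. Dnah6, Dnah2 and Dnah7 had log2 fold changes of 0.31, 0.15 and 0.18 in the same fit.

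The outer arm heavy chains, which set beat frequency, lay above 0 with all 6 libraries and on both sides of 0 without WT replicate 1. Over the same 4 genes their medians were 0.41 and 0.14, and with Dnah8, tested only in the second fit, 0.07 over 5. By edgeR 0 were called in either fit, with 0 and 1 at an unadjusted p under 0.05; Dnah11 was called by limma-voom with quality weights (all 6, adjusted p = 0.0277). Dnah5, whose loss is a common cause of primary ciliary dyskinesia, read 11.9, 18.8 and 27.96 CPM in WT replicates 1 to 3 and 26.1, 24.3 and 23.3 CPM in KO replicates 1 to 3, and WT replicate 3 was the highest library. Its log2 fold change without WT replicate 1 was 0.07 (SE 0.15), with a 95% interval of -0.25 to 0.39. Dnah9, a partner of Dnah5 in the arm, read 16.3, 31.97 and 41.3 CPM in WT replicates 1 to 3 and 39.2, 42.4 and 44.96 CPM in KO replicates 1 to 3, at 0.20 (SE 0.11) and an adjusted p of 0.371. Dnah11 was at 0.31 with an adjusted p of 0.146. The 2 chains best known from sperm, Dnah17 and Dnah8, were at -0.12 and -0.34. Dnah8 was near the limit of counting: it had 8, 10 and 14 reads in WT and 18, 3 and 4 in KO.

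Intermediate and light chains, the smaller subunits that anchor and tune the arms, had medians of 0.33 and 0.10 over 6 genes. In neither fit did edgeR call any (0 called), with 0 and 1 at an unadjusted p under 0.05. Dnal4, the most abundant of them per gene length, ran the other way to most members. It read 35.1, 30.5 and 23.7 CPM in WT replicates 1 to 3 and 28.3, 21.2 and 22.5 CPM in KO replicates 1 to 3, with WT replicate 1 highest, at -0.17 (SE 0.14) and an adjusted p of 0.606 without that library. Dnal1, a light chain of the outer arm, read 34.4, 55.6 and 60.5 CPM in WT replicates 1 to 3 and 51.9, 61.5 and 63.6 CPM in KO replicates 1 to 3, at 0.03 (SE 0.09). Dnai3, an inner arm intermediate chain, was at 0.39 with an adjusted p of 0.154 by edgeR; it was called with quality weights (all 6, adjusted p = 0.0391) and without the filter on low counts (adjusted p = 0.0425). The outer arm chains Dnai1 and Dnai2 were at 0.26 and -0.10.

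Assembly factors, which fold and load the arms before they enter the cilium, had medians of 0.34 and 0.15 over 8 genes. EdgeR called 0 in both fits, with 1 higher at an unadjusted p under 0.05 in the first and 1 higher and 1 lower in the second. Of all genes, 5.04% were higher in the first, and 8.52% higher and 9.28% lower in the second. Cfap298, the most abundant member per length, varied little among libraries and read 34.4, 38.8 and 41.2 CPM in WT replicates 1 to 3 and 39.5, 41.7 and 42.3 CPM in KO replicates 1 to 3. Its 95% interval without WT replicate 1, -0.12 to 0.20, was among the narrowest. Dnaaf5 read 25.02, 21.6 and 25.8 CPM in WT replicates 1 to 3 and 21.4, 23.96 and 21.8 CPM in KO replicates 1 to 3, with the groups interleaved. Dnaaf3 did not overlap between groups and read 8.90, 13.5 and 17.02 CPM in WT replicates 1 to 3 and 21.1, 20.9 and 18.3 CPM in KO replicates 1 to 3, with a log2 fold change of 0.40 (SE 0.13) and an adjusted p of 0.130 (0.61 with all 6, adjusted p = 0.405). It was called with quality weights (all 6, adjusted p = 0.0194) and without the filter on low counts (adjusted p = 0.0479). Dnaaf6, an X-linked assembly factor, had the largest fold of all members with 6 libraries, 1.08 (SE 0.51), on low counts: 0.542, 1.36 and 2.55 CPM in WT replicates 1 to 3 and 2.72, 2.93 and 3.83 CPM in KO replicates 1 to 3. The adjusted p was 0.471, and 0.296 without WT replicate 1. Dnaaf2 lay lower in the KO than in WT replicates 2 and 3, with 13.6, 21.9 and 21.05 CPM in WT replicates 1 to 3 and 16.2, 20.4 and 17.03 CPM in KO replicates 1 to 3 and a log2 fold change of -0.26 (SE 0.12), but WT replicate 1 was lower still and the adjusted p was 0.278.

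The complexes that tether and modify the inner arms had medians of 0.55 and 0.32, with all 5 genes above 0. The edgeR calls were 0 in each fit. At an unadjusted p under 0.05, 1 and 3 were higher, where 5.04% and 8.52% of all genes were. Cfap100, part of the modifier of inner arms, read 13.6, 26.6 and 34.9 CPM in WT replicates 1 to 3 and 47.3, 42.3 and 36.99 CPM in KO replicates 1 to 3. All 3 KO libraries were above all 3 WT libraries, and without WT replicate 1 the log2 fold change was 0.46 (SE 0.13) with an adjusted p of 0.0811 (0.75 with all 6, adjusted p = 0.428). DESeq2 called it without WT replicate 1 (adjusted p = 0.0130), and limma-voom with quality weights called it and Cfap44 with all 6 (adjusted p = 0.0140 and 0.0352). Cfap44, of the tether complex, was the most abundant in CPM at 33.1, 66.1 and 82.3 in WT and 91.6, 91.8 and 82.6 in KO, at 0.26 (SE 0.09) and an adjusted p of 0.179. Cfap43, its partner, Cfap57 and Cfap73, the partner of Cfap100, were at 0.19, 0.32 and 0.48.

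Radial spoke genes all lay above 0 in both fits, with medians of 0.53 and 0.34 over 10 genes. By edgeR 0 were called in either fit. At an unadjusted p under 0.05, 4 and 5 were higher, where 5.04% and 8.52% of all genes were. Limma-voom with quality weights called 4 of them with all 6 (4.21% of all genes), Rsph1, Rsph10b, Cfap206 and Cfap91. Rsph1, a spoke head protein, read 8.97, 14.1 and 13.4 CPM in WT replicates 1 to 3 and 17.1, 18.4 and 17.6 CPM in KO replicates 1 to 3, with no overlap, at 0.36 (SE 0.11) and an adjusted p of 0.0996 (0.54 with all 6, adjusted p = 0.379). Rsph10b came closest to the threshold, with 12.3, 23.04 and 27.1 CPM in WT replicates 1 to 3 and 32.3, 31.2 and 35.9 CPM in KO replicates 1 to 3, a log2 fold change of 0.40 (SE 0.10) and an adjusted p of 0.0550 (0.67 with all 6, adjusted p = 0.422), and DESeq2 called it (adjusted p = 0.0164). Cfap61, found at the base of a spoke, read 5.72, 6.91 and 7.56 CPM in WT replicates 1 to 3 and 8.32, 9.99 and 10.9 CPM in KO replicates 1 to 3, at 0.43 (SE 0.16) and an adjusted p of 0.196. The other spoke genes ranged from 0.15 for Rsph9 to 0.41 for Rsph14.

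The central apparatus, which surrounds the central pair, had the highest medians of any role, 0.73 and 0.40, with all 6 genes above 0. EdgeR called 0 of them in either fit, with 0 at an unadjusted p under 0.05 in the first and 5 higher in the second, where 8.52% of all genes were. Limma-voom with quality weights called 3 with all 6, Cfap46, Cfap65 and Cfap69, and DESeq2 called Cfap46 without WT replicate 1 (adjusted p = 0.00645). Summed, the 6 genes read 74.5, 127.4 and 167.5 CPM in WT replicates 1 to 3 and 185.4, 211.6 and 196.8 CPM in KO replicates 1 to 3. Cfap46 read 6.97, 18.97 and 27.7 CPM in WT replicates 1 to 3 and 30.7, 34.8 and 36.6 CPM in KO replicates 1 to 3: the KO libraries were close to each other, and WT replicates 2 and 3 differed from each other more than the KO libraries did. Its log2 fold change was 0.92 (SE 0.43) with all 6 and 0.54 (SE 0.14) without WT replicate 1, with adjusted p of 0.460 and 0.0701. Cfap65 read 23.6, 48.3 and 73.8 CPM in WT replicates 1 to 3 and 81.8, 90.3 and 80.1 CPM in KO replicates 1 to 3, at 0.46 (SE 0.14) and an adjusted p of 0.113 (0.79 with all 6, adjusted p = 0.451). Cfap74 read 4.44, 13.3 and 17.9 CPM in WT replicates 1 to 3 and 17.9, 26.04 and 19.9 CPM in KO replicates 1 to 3, where KO replicate 1 was hardly above WT replicate 3, at 0.45 (SE 0.17) and an adjusted p of 0.203 (0.84 with all 6, adjusted p = 0.504). Cfap70 did not follow the low level in WT replicate 1: it read 30.9, 28.1 and 25.5 CPM in WT replicates 1 to 3 and 29.4, 33.8 and 34.1 CPM in KO replicates 1 to 3. Its log2 fold change of 0.27 without that library had an adjusted p of 0.157.

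Proteins inside the doublet microtubules, which stiffen them, had medians of 0.37 and 0.15 over 6 genes. None passed in edgeR (0 in both fits), with 1 higher at an unadjusted p under 0.05 in each, Cfap52. Cfap52 had the smallest p of all members with 6 libraries. It read 9.31, 11.6 and 13.5 CPM in WT replicates 1 to 3 and 19.1, 17.8 and 16.3 CPM in KO replicates 1 to 3, with all KO above all WT libraries, at 0.63 (SE 0.17) with all 6 and 0.50 (SE 0.12) without WT replicate 1, where the adjusted p was 0.0544; DESeq2 called it in both (adjusted p = 0.0423 and 0.0156). Cfap45 read 10.8, 19.96 and 18.98 CPM in WT replicates 1 to 3 and 21.3, 22.8 and 20.9 CPM in KO replicates 1 to 3, at 0.16 (SE 0.10). Cfap20, whose groups overlapped, read 43.3, 42.1 and 38.7 CPM in WT replicates 1 to 3 and 37.4, 43.4 and 40.3 CPM in KO replicates 1 to 3, with a 95% interval of -0.19 to 0.19 without WT replicate 1. Tektins, coiled filaments within the doublet wall, had medians of 0.10 and 0.21 over 5 genes. Of them 0 were called by edgeR, DESeq2 or limma-voom in either fit, and 0 had an unadjusted p under 0.05 in edgeR. Tekt1 read 7.79, 11.7 and 12.7 CPM in WT replicates 1 to 3 and 13.3, 14.1 and 14.8 CPM in KO replicates 1 to 3, at 0.21 (SE 0.12). Tekt2, by contrast, was highest in WT replicate 1, with 23.8, 19.03 and 18.2 CPM in WT replicates 1 to 3 and 19.8, 19.01 and 15.98 CPM in KO replicates 1 to 3, at -0.03 (SE 0.12) without it.

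The remaining 12 genes, Dnah14 and Cfap genes that were not placed in any of these roles, had medians of 0.40 and 0.21, and 1, Cfap99, was called. Being in this group does not show that a gene acts outside the structures above. Cfap99, a conserved ciliary gene at chromosome 14, 76423923 to 76468170, minus strand, rose. It read 22.2, 44.5 and 63.4 CPM in WT replicates 1 to 3 and 71.03, 83.7 and 82.6 CPM in KO replicates 1 to 3, so the KO libraries lay above all WT libraries while WT replicates 2 and 3 stood well apart from each other. Without WT replicate 1 it averaged 53.99 ± 13.4 CPM (SD, n = 2) in WT replicates 2 and 3 and 79.1 ± 7.02 CPM (SD, n = 3) in the KO, a log2 fold change of 0.55 (SE 0.13) with an adjusted p of 0.0469; with all 6 it was 0.86 and the adjusted p 0.408. Cfap92 had the largest fold of the 71 without WT replicate 1, 0.72 (SE 0.26), at low levels of 2.27, 2.02 and 3.67 in WT and 4.63, 4.89 and 4.56 in KO CPM and an adjusted p of 0.184 (0.82 with all 6, adjusted p = 0.364). Dnah14 and Cfap299 were without overlap as well, with 1.66, 2.83 and 4.07 in WT and 4.11, 6.399 and 4.59 in KO and 1.56, 2.77 and 3.16 in WT and 3.43, 5.08 and 4.11 in KO CPM, at 0.54 and 0.50 and an adjusted p of 0.309 and 0.309. Cfap126, which helps position basal bodies, read 13.98, 16.4 and 19.5 CPM in WT replicates 1 to 3 and 20.6, 24.2 and 19.6 CPM in KO replicates 1 to 3, and Cfap36 18.05, 32.9 and 35.98 in WT and 39.3, 37.9 and 37.7 in KO, at 0.26 and 0.15. Cfap157, known from sperm tails, was counted only 2 times in WT replicate 1 and had 0.0677, 0.362 and 0.483 in WT and 0.291, 0.284 and 0.383 in KO CPM. Cfap20dc was the other gene lower in the KO at an unadjusted p under 0.05, with 6.37, 10.1 and 11.4 in WT and 9.45, 6.71 and 8.23 in KO CPM, a log2 fold change of -0.41 (SE 0.17) and an adjusted p of 0.243. Cfap58l1 read 1.46, 3.71 and 4.29 in WT and 4.99, 5.36 and 4.46 in KO CPM. Only its symbol points to a related gene, and whether its counts include reads of such a gene was not tested.

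Other motile cilia genes, from 5 lists outside the name rule, lay mostly above 0 as well, with smaller medians. Of 109 tested, 99 lay above 0 with all 6 libraries (median 0.34) and 88 without WT replicate 1 (median 0.16). With all 6, edgeR called 0, and 17 were higher and 0 lower at an unadjusted p under 0.05, where 5.04% and 6.29% of all genes were. In the same libraries DESeq2 called 3 higher (1.06% of all genes). With quality weights limma-voom called 20 higher and 1 lower (778 and 898 of all 18464 genes). When WT replicate 1 was left out, edgeR called 6 higher and 0 lower, where 1.65% and 2.34% of all genes were, DESeq2 called 9 higher (2.91%), and limma on log2(FPKM + 1) called 0. The nexin-dynein regulatory complex, docking complexes and ruler proteins, which space and hold the arms, had medians of 0.55 and 0.28 over 19 genes. In that list Ccdc40, Odad4 and Drc1 rose without WT replicate 1, by 0.67, 0.59 and 0.52, with adjusted p of 0.0168, 0.0438 and 0.0452; with all 6 they were at 0.85, 0.89 and 0.81, with adjusted p of 0.255, 0.379 and 0.398. Ccdc40, part of the ruler that sets the axoneme repeat, read 12.6, 17.3 and 21.4 CPM in WT replicates 1 to 3 and 26.9, 31.6 and 33.99 CPM in KO replicates 1 to 3. Central pair and spoke genes outside the rule had medians of 0.49 and 0.26 over 18 genes, with Ak7 (0.52, adjusted p = 0.0195) and Spef2 (0.73, adjusted p = 0.0394) called higher in the second fit; with all 6 they were at 0.82 and 1.09, with adjusted p of 0.400 and 0.385. Further assembly and inner doublet genes had medians of 0.29 and 0.12 over 25 genes. By edgeR 0 were called in either fit. At an unadjusted p under 0.05, 3 and 5 were higher, where 5.04% and 8.52% of all genes were. Zmynd10 came nearest, at 0.36 and an adjusted p of 0.0907, and DESeq2 called it (adjusted p = 0.0378).

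Intraflagellar transport, which builds primary as well as motile cilia, had the smallest medians of the 5 lists, 0.18 and 0.09 over 31 genes. Dync2i1, a subunit of the retrograde motor, was the only gene of that list called by edgeR (0.39, adjusted p = 0.0371; 0.58 with all 6, adjusted p = 0.359). At an unadjusted p under 0.05, 9 were higher and 2 lower without WT replicate 1, where 8.52% and 9.28% of all genes were. With all 6 and quality weights, limma-voom called 5 higher and 1 lower (778 and 898 of all 18464 genes). The lower one was Ttc21b (adjusted p = 0.0343). Regulators of the multiciliated cell had medians of 0.37 and 0.14 over 16 genes. EdgeR called 0 of these in either fit. At an unadjusted p under 0.05, 2 and 3 were higher, where 5.04% and 8.52% of all genes were. Tp73, which acts upstream of Foxj1, read 4.91, 5.31 and 7.61 CPM in WT replicates 1 to 3 and 10.4, 10.7 and 9.22 CPM in KO replicates 1 to 3, without overlap, at 0.64 (SE 0.18) and an adjusted p of 0.0844 (0.76 with all 6, adjusted p = 0.288), and DESeq2 called it in both (adjusted p = 0.0436 with all 6 and 0.0294). Mcidas, an early switch of the program, stayed near 1 CPM or below, with 0.406, 1.06 and 1.02 in WT and 0.583, 1.20 and 0.702 in KO CPM, and Rfx3 read 8.87, 19.6 and 26.9 in WT and 25.4, 25.1 and 22.5 in KO CPM at 0.07.

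Markers of the cells that could carry these genes, or accompany them, were read in the same way. Of 19 tested ciliated cell markers outside the rule, 15 lay above 0 with all 6 libraries (median 0.48) and 17 without WT replicate 1 (median 0.29). With all 6, edgeR and DESeq2 called 0, and limma-voom with quality weights called 7 higher (4.21% of all genes). Without WT replicate 1, edgeR called 2 higher (1.65% of all genes) and DESeq2 4 (2.91%). The 2 were Ccdc17 and Erich3, which rose by 0.46 and 0.45 (edgeR adjusted p = 0.0428 and 0.0423), against 0.80 and 0.75 with all 6 (adjusted p = 0.454 and 0.427). At an unadjusted p under 0.05 in edgeR, 3 were higher with all 6, where 5.04% of all genes were. Without WT replicate 1, 7 were higher and 1 lower, where 8.52% and 9.28% of all genes were. WT replicate 1 was lowest for 14 of the 19 but highest for 4, Tppp3, Tubb4b, Tuba1a and Mlf1. Those 4 carry most of the summed level, which was 1654, 1262 and 1348 in WT and 1303, 1332 and 1368 in KO CPM. Tppp3 alone read 833.9, 480.6 and 487.3 in WT and 434.2, 446.8 and 426.9 in KO CPM.

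Club cells, the secretory neighbours of ciliated cells in the airway lining, were read beside them. Their markers summed to 4320, 5235 and 5523 in WT and 7116, 6739 and 6437 in KO CPM, lowest in WT replicate 1 and higher in each KO library than in each WT library. Without WT replicate 1, Scgb1a1 and Scgb3a2, the main club cell secretory products, rose by 0.38 and 0.48 (adjusted p = 0.0167 and 0.0205); with all 6 they were at 0.47 and 0.69 (adjusted p = 0.276 and 0.328). Of the 10 club cell markers tested, 6 lay above 0 and 4 below in each fit, with medians of 0.40 and 0.15. EdgeR called 0 with all 6 and 2 higher without WT replicate 1, where 1.65% of all genes were. At an unadjusted p under 0.05, 2 were higher in each fit, where 5.04% and 8.52% of all genes were. Agr2, at -0.47, was lower at that threshold without WT replicate 1, where 9.28% of all genes were. The airway secretory gene Bpifa1, picked out after its values were seen, varied within both groups, with 19.98, 94.2 and 94.96 in WT and 15.9, 23.4 and 226.2 in KO CPM. Alveolar type 2 markers ran the other way, summing to 35796, 23255 and 21915 in WT and 20015, 20303 and 18465 in KO CPM. Of their 10 genes 10 lay below 0 with all 6 (median -0.41) and 9 without WT replicate 1 (median -0.18), where Sftpc and Lamp3 fell, with log2 fold changes of -0.20 and -0.42 (adjusted p = 0.0474 and 0.0477). With all 6 these were at -0.45 and -0.30 (adjusted p = 0.432 and 0.4999). At an unadjusted p under 0.05 in edgeR, 3 were lower with all 6 and 7 without WT replicate 1, and 0 higher. Of all genes, 6.29% and 9.28% were lower. Without WT replicate 1, DESeq2 called 4 lower (664 of all 17889 genes) and edgeR without the filter on low counts 7 (953 of 27214). With all 6, limma-voom with quality weights called 4 lower (898 of 18464). With upper quartile scaling edgeR called 0 of the 10 in either fit. Alveolar type 1 markers summed to 7683, 7371 and 7295 in WT and 7389, 6824 and 6864 in KO CPM, with 0 called by edgeR or DESeq2 in either fit. At an unadjusted p under 0.05 without WT replicate 1, 1 was higher and 3 lower, where 8.52% and 9.28% of all genes were. In that fit edgeR without the filter on low counts called 1 lower, Pdpn (adjusted p = 0.0446), and 953 of all 27214 genes. Markers of airway cartilage and glands summed to 21.8, 24.9 and 28.4 in WT and 24.8, 17.4 and 19.3 in KO CPM, with Matn1 at 0 counts in all 6 libraries and Acan, Col2a1 and Ltf at or near 0. Once WT replicate 1 was left out, edgeR and DESeq2 called 0 of the basal, squamous and striated muscle markers (unadjusted p under 0.05 in edgeR for 1 higher and 1 lower basal, 0 squamous and 1 lower muscle marker), and limma-voom called 1, Krt14. Without the filter on low counts edgeR called Myh7, Ckm and Mb higher and Krt14 lower (754 higher and 953 lower of all 27214 genes). Summed muscle markers read 134 CPM in KO replicate 3 and 29.7 to 49.8 in the other libraries of that fit. Among those of cartilage and glands 1 was called, Dmbt1, with a log2 fold change of -1.65 (adjusted p = 0.00877). With all 6 it was at -1.86 and not called by edgeR (adjusted p = 0.138). In those 6 libraries DESeq2 (adjusted p = 4.5e-06) and limma-voom with quality weights (adjusted p = 0.00089) did call it lower. The part that the makeup of each piece of lung played in the cilia values was not tested.

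The 71 genes were spread over 20 chromosomes of mRatBN7.2. Chromosome 10, which carries Foxj1, held 10 of them, 14.1%, where 8.40% of all genes meeting the count rule lie, and chromosome 1 held 7, 9.86% against 12.6%. None of the 71 appears among the 192 genes of the authors' deposited table of KO against WT.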

How the data were processed

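Lung RNA of 3 WT and 3 KO rats was compared, grouped by the sample titles. The authors deposited raw counts per gene, the FPKM of the same genes, and a table of their comparison, which holds p-values, log2 fold changes and a per-library signal and was used here only to look for the members. The submitters' processing notes name featureCounts 2.0.6, HISAT2 2.2.1, DESeq2 1.42.0, CASAVA and StringTie 2.2.3, with the build mRatBN7.2; strand handling is not given in the sources used here, so overlapping and antisense genes cannot be told apart. Low counts were mostly even (3171 genes even and 1641 odd in WT replicate 1), so both mates appear to be counted and independent fragments are fewer.

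Counts were tested with edgeR 4.0.16 (R 4.3.3): TMM, filterByExpr with a minimum count of 10, quasi-likelihood test, Benjamini-Hochberg adjustment over all tested genes, threshold 0.05. Scripts were tested on simulated data. The members, lists, roles and tests were chosen with earlier results of these data known. Named genes were Foxj1, those called, the 8 of smallest p in each fit, the 2 of highest FPKM per role, those nearest the count rule, and up to 10 without overlap by fold; Dnaaf2 and Cfap20dc were added after their values were seen, as were members named only with a fold. Of the list symbols, 197 matched by name and 9 through RefSeq; 9 did not match. Alternatives used other normalizations, filters and tools (DESeq2 1.42.0, limma 3.58.1), FPKM on a log2 scale, a replicate block, each library left out and a threshold of 0.1. The labels call the rats biological replicates.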

Additional observations from a re-analysis of the deposited data

How the results depend on the processing

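With all 6 libraries, the count of members called (0) was also 0 with RLE or upper quartile scaling, no filter, the filter of the count rule, limma-voom, the robust fit, log2 FPKM, an adjusted p of 0.1 and the replicate block. It was 1 with DESeq2, 19 with limma-voom and sample quality weights (added after seeing the data), and 0 to 2 with 1 library left out, 2 being without WT replicate 1. The median of 0.49 became 0.36 on log2(FPKM + 1), 0.33 with quality weights, and 0.24 (without WT replicate 1) to 0.71 (without WT replicate 3) with 1 library left out; all stayed above 0.

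Without WT replicate 1, the count of 2 became 4 with upper quartile scaling, 14 with no filter, 8 with DESeq2, 10 at an adjusted p of 0.1 and 0 on log2(FPKM + 1) or log2(FPKM + 0.1). With 1 KO library also left out it was 0 without KO replicate 2 or KO replicate 3 and 1 without KO replicate 1. With any 1 more library left out, WT or KO, the median was 0.18 to 0.38. Where this leaves 1 WT library, it is assumed to vary like the KO. The cause of these changes was not tested.

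No label states that shared replicate numbers mark pairs. Correlations of same-numbered libraries, as deviations from their group means, were -0.08, 0.03 and -0.08. They cannot decide on pairing, because the groups are small and WT replicate 1 stands apart. With the replicate block the counts were 0 with all 6 libraries and 4 without WT replicate 1, and the medians 0.53 and 0.26.

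The sign turned for 9 named genes, none of them called; Foxj1, Dnah5, Dnal1, Dnal4, Dnaaf5, Tekt2 and Cfap20 among them are well counted. Cfap20 with all 6 libraries became 0.0114 with upper quartile scaling and ran from -0.0918 to 0.0152 with 1 library left out. Cfap157 became -0.25 with quality weights and ran from -0.40 (without WT replicate 1) to 0.54 with 1 library left out. In the fit without WT replicate 1, Cfap20 became 0.0251 with upper quartile scaling, 2e-04 with the filter of the count rule, 0.0011 with limma-voom, 0.0509 with the replicate block and 0.0110 with quality weights. With 1 more library left out there, Cfap20 ran from -0.0641 to 0.0620, Dnah5 from -0.18 to 0.38, Foxj1 from -0.16 to 0.30, Dnal1 from -0.0341 to 0.11, Dnal4 from -0.35 to 0.0228, Tekt2 from -0.0878 to 0.0652, Dnaaf5 from -0.21 to 0.0480 and Dnah8 from -0.48 to 0.0672. Of the other values of named genes under alternatives, 1056 kept their side of the threshold, 45 passed it and 13 lost it. Counting depth limits Dnah8, Cfap157 and Dnaaf6 most.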
